A study of Homo sapiens with 2 samples.

Results

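Polyamine metabolism was described through 10 genes, AOC1, ODC1, AMD1, SRM, SMS, SAT1, SMOX, PAOX, OAZ1 and AZIN1, chosen by gene symbol in the platform annotation of the array. Of these 10, 9 were measured, each by 1 probe set, among 17687 named genes in all. The expression of ODC1 was not analysed here. The genes were put together because AOC1 had one of the largest differences between the arrays, so the values below are a description and nothing is tested on them.

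MKN1 is an established human gastric cancer cell line. It was grown in RPMI medium with serum, and cells were given a pBABE retroviral plasmid for either wild-type RHOA or RHOA Y42C and then selected with puromycin. RHOA is a small GTPase that controls the actin cytoskeleton, and Y42C exchanges a tyrosine for a cysteine. Both lines therefore carry an added RHOA gene and went through the same drug selection, and parental or empty-vector cells were not analysed here. Whether a line was 1 clone or a pool of selected cells is not given in the sources used here. RNA of each line was measured on 1 Affymetrix array, so a difference below is one between 2 arrays, with no replicate error, no interval and no test. A culture-to-culture difference and a difference between the RHOA forms cannot be told apart.

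Polyamines are small positively charged molecules that bind nucleic acids and that dividing cells need. Ornithine decarboxylase (ODC1) makes putrescine, S-adenosylmethionine decarboxylase (AMD1) supplies the aminopropyl groups, and spermidine synthase (SRM) and spermine synthase (SMS) add these groups in turn. Acetylation by SAT1 followed by oxidation by PAOX, or direct oxidation by SMOX, leads back down the chain, antizyme (OAZ1) and antizyme inhibitor (AZIN1) set the stability of ornithine decarboxylase, and the secreted diamine oxidase AOC1 breaks down putrescine and histamine outside cells.

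The sequences just before the transcription start are shown for AOC1, which differed most, and for the consecutive synthases SRM and SMS, which differed in opposite directions. They are RefSeq sequences of build GRCh38.p14, 250 bases each, 5′ to 3′ on the strand of the gene. Capitals mark the E-box, CACGTG, the sequence bound by MYC and MAX.
AOC1, chr7:150852267-150852516, plus strand: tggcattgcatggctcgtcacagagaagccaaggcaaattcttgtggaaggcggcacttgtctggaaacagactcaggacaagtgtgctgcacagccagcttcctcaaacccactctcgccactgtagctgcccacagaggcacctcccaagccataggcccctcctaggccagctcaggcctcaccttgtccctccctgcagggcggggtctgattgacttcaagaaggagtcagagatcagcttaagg
SRM, chr1:11060019-11060268, minus strand: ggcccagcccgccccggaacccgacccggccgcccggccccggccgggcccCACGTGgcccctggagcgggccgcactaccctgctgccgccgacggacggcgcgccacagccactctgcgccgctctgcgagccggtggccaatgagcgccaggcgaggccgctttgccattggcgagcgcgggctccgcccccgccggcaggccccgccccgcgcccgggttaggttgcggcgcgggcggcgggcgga
SMS, chrX:21940459-21940708, plus strand: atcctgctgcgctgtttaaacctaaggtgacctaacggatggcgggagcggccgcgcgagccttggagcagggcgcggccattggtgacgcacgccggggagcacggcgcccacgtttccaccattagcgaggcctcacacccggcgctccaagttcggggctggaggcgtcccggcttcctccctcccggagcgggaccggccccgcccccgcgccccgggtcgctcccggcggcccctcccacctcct
The SRM sequence holds 1 E-box, whose first base lies 199 bases before the start. The annotated AOC1 gene also has transcripts that begin upstream of the sequence shown, so that stretch lies within the gene model.

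The E-box (CACGTG) and the AP-1 motif (TGANTCA, with N for any base) were searched on both strands in windows of 300 bases, from 250 before to 50 after each start. The table of promoters held 10 windows for 7 of the 10 genes, and AZIN1, SMOX and PAOX had none. An E-box was found in windows of SRM and ODC1, in 2 of 10 windows, against 7.26% of 35116 promoter windows of all genes. The AP-1 motif was found in 0 of 10 windows, against 7.71% of all. Some windows belong to the same gene, so the counts are descriptions, and a match is not a measured binding site.

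AOC1 was the member with the largest difference. Its signal was 8.66 on the wild-type array and 12.25 on the Y42C array, on the log2 scale of the deposited values. The Y42C array was thus 12.0-fold higher, a log2 difference of 3.59. Both values lay well above the minimum set for expression, which was 5.17 on the wild-type and 5.14 on the Y42C array. That minimum is the 95th percentile of 349 olfactory receptor genes, smell receptors that gastric cells should leave silent, and 11802 genes reached it on at least 1 array. Of these genes, 0.0847%, AOC1 among them, differed by as much as AOC1 or more in either direction. The members were put together because of this difference, so this share and the range that follows are descriptions only. For the 500 genes closest to AOC1 in mean signal, the middle 95% of log2 differences ran from -1.53 to 1.58.

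**Figure D1:**
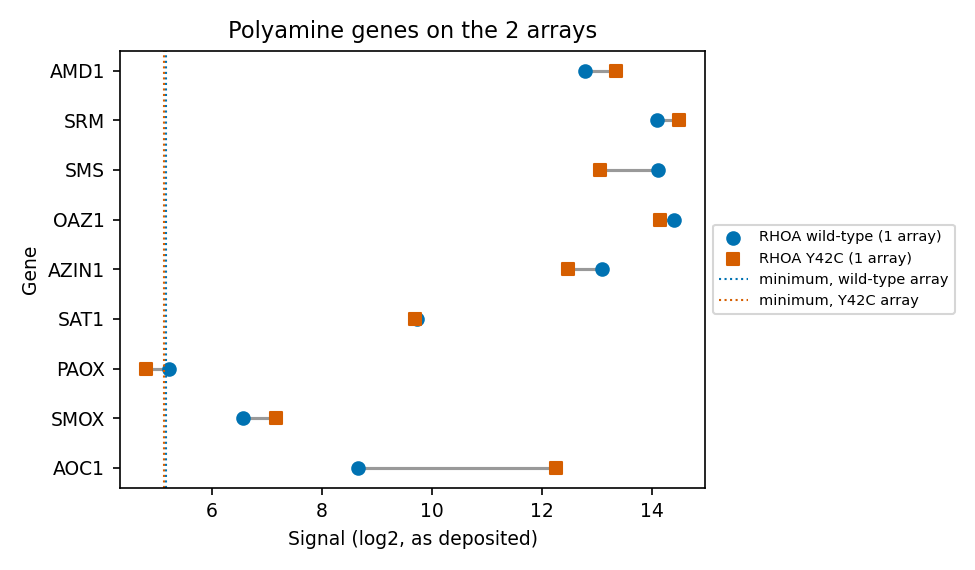
Signal of the 9 measured polyamine genes (x axis, log2 as deposited) on the wild-type array (blue circles) and the Y42C array (orange squares), with the expression minimum of each array as a dotted line. AOC1 has the widest gap, from 8.66 to 12.25, SMS runs the other way, from 14.11 to 13.05, and PAOX lies at the minimum.

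Enzymes that build polyamines differed in both directions. AMD1 read 12.79 on the wild-type and 13.34 on the Y42C array, a log2 difference of 0.55. SRM, which turns putrescine into spermidine, read 14.09 and 14.49, a difference of 0.40. Both were higher on the Y42C array by less than 2-fold. SMS, which turns spermidine into spermine, read 14.11 and 13.05, so it was 2.08-fold lower on the Y42C array. Its log2 difference of -1.06 lay just past the 2-fold line and became -1.0 once each array was centred on its median. The differences of the consecutive synthases SRM and SMS were 1.46 apart on the log2 scale. In either direction, 57.2% of genes above the minimum differed by as much as SRM or more, and 15.6% by as much as SMS.

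The genes of both regulators of ornithine decarboxylase read lower on the Y42C array, each by less than 2-fold. Among all genes above the minimum, 54.2% read lower for Y42C. In either direction, 71.3% of them differed by as much as OAZ1 or more, and 38.1% by as much as AZIN1. OAZ1, antizyme, which binds ornithine decarboxylase and sends it to the proteasome, read 14.40 on the wild-type and 14.14 on the Y42C array, a log2 difference of -0.26. AZIN1, which binds antizyme and so frees the enzyme, read 13.10 and 12.47, a difference of -0.63. Antizyme is made through a ribosomal frameshift that polyamines promote, a step that RNA signal does not measure.

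SAT1 and SMOX, which act in breakdown inside cells, differed by less than 2-fold, and PAOX could be given only as a bound. SAT1, the acetyltransferase that starts the return path, read 9.73 on the wild-type and 9.69 on the Y42C array. Its difference of -0.04 became 0.02 after centring or quantile normalization and 0.08 after a trend on signal was removed, so it has no stable sign. SMOX, which oxidises spermine directly, read 6.57 and 7.16, a difference of 0.59 and 1.51-fold higher on the Y42C array. PAOX, which oxidises the acetylated forms, read 5.22 and 4.81. Its Y42C value was below the minimum of that array, so as a bound it was at least 1.06-fold lower there. The wild-type value was itself just above its minimum of 5.17, so the direction is not secure.

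All 9 measured genes were above the minimum on at least 1 array. AOC1 was the 1 gene at least 2-fold higher for Y42C, SMS the 1 gene at least 2-fold lower, and 7 lay between in the deposited values, PAOX among them with its Y42C value below the minimum. Across the 11802 genes that reached the minimum, 7.46% were higher by 2-fold or more and 9.80% lower by 2-fold or more. The 9 genes were chosen with these differences known, so nothing is read from their count. Their median log2 difference was -0.04, beside -0.07 for all genes above the minimum, and it was -0.15 for the 8 genes without AOC1. All 8 lay inside the middle 95% of the 500 genes nearest to each in signal.

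**Figure D2:**
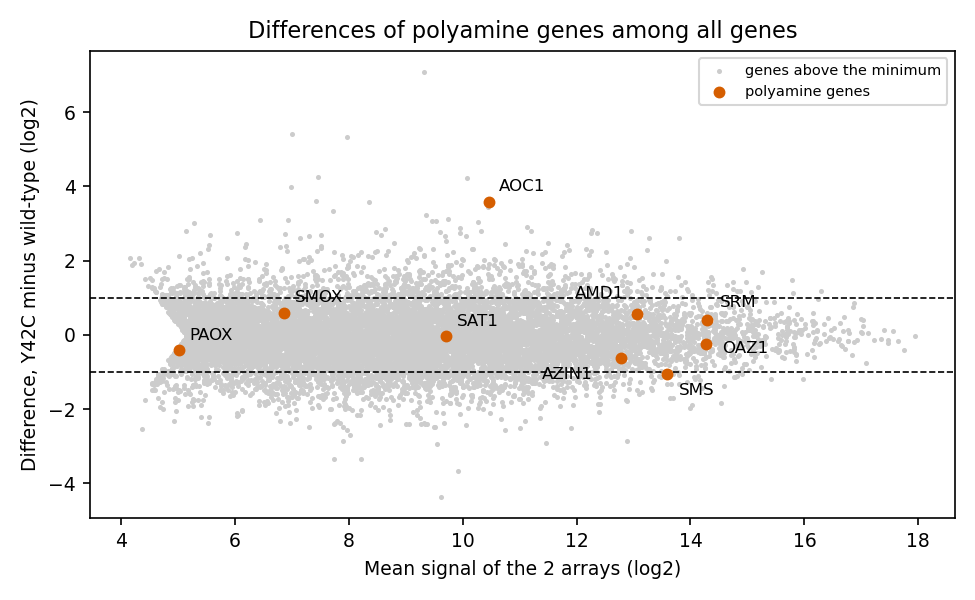
Log2 difference, Y42C minus wild-type (y axis), against the mean log2 signal of both arrays (x axis) for the 11802 genes above the minimum (grey) and the 9 polyamine genes (orange), with dashed lines at 2-fold. AOC1 stands at 3.59, and the other polyamine genes lie between -1.06 and 0.59.

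A wider list of 45 genes around the pathway had 43 genes named here, of which 31 were above the minimum. At least 2-fold higher on the Y42C array were 3 of the 31, at least 2-fold lower 6, and 22 lay between. The shares over all 11802 genes were 7.46% and 9.80%. The median log2 difference of the 31 was -0.25, beside -0.07 for all genes.

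Of the further regulators and isoforms, 3 were above the minimum, and all 3 read lower on the Y42C array, 2 of them past 2-fold. Of all genes above the minimum, 54.2% read lower for Y42C and 9.80% passed 2-fold in that direction. OAZ2, a second antizyme, read 9.40 on the wild-type and 7.66 on the Y42C array and was 3.34-fold lower. AZIN2, a second antizyme inhibitor, read 6.77 and 5.23 and was 2.91-fold lower. Its Y42C value was just above the minimum of 5.14, so the size of that fold is uncertain. OAZ2 and AZIN2 had larger differences than OAZ1 (-0.26) and AZIN1 (-0.63), but both were also much dimmer than OAZ1 and AZIN1 on each array. The part of signal level in this was not tested. SAT2, a relative of SAT1, differed by -0.89. OAZ3, SATL1 and AGMAT were below the minimum on both arrays. Probe sequences were not used here, so whether probes are shared between such relatives was not tested.

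Genes that supply the building blocks were mixed. MAT2A, which makes S-adenosylmethionine, the substrate of AMD1, read 13.05 on the wild-type and 11.76 on the Y42C array and was 2.45-fold lower. MAT2B, its regulatory subunit, differed by -0.33, and OAT, which interconverts ornithine and glutamate semialdehyde, by -0.57. SLC7A1, a carrier of arginine and ornithine, differed by 0.81. The arginases ARG1 and ARG2, which make ornithine, and MAT1A were below the minimum on both arrays.

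Methylthioadenosine, the by-product of SRM and SMS, is returned to methionine by a short salvage path. All 5 of its genes read lower for Y42C, and 1 passed 2-fold, beside 54.2% and 9.80% of all genes above the minimum. APIP, a dehydratase of this path, read 11.71 on the wild-type and 10.27 on the Y42C array and was 2.71-fold lower. MTAP, which cleaves methylthioadenosine, differed by -0.44, ADI1 by -0.61, ENOPH1 by -0.26 and MRI1 by -0.20.

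Genes linked to polyamine transport read higher for Y42C in 6 of 7 cases, with 2 past 2-fold and 4 between 0.17 and 0.83 on the log2 scale. Of all genes above the minimum, 45.2% read higher for Y42C and 7.46% passed 2-fold in that direction. SLC3A2, the heavy chain of several amino acid carriers that has also been linked to polyamine export, read 14.12 and 15.36 and was 2.36-fold higher. ATP13A2, which moves polyamines out of lysosomes, read 10.66 and 11.72 and was 2.08-fold higher. Its relative ATP13A3 differed by 0.36, the uptake-linked proteoglycan GPC1 by 0.83, CAV1 by 0.28 and the vesicular carrier SLC18B1 by 0.17. SLC12A8, a carrier for which polyamine transport has been proposed, was the exception. It read 9.42 on the wild-type and 6.06 on the Y42C array and was 10.3-fold lower. SLC22A2 was below the minimum on both arrays.

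Spermidine also serves to modify the translation factor EIF5A with hypusine. EIF5A read 16.91 and 17.15, a difference of 0.24, and DHPS, the enzyme of the first step, differed by -0.31. EIF5A2 differed by -0.16, and DOHH was below the minimum on both arrays. No gene of this step reached 2-fold.

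No other enzyme on the list of amine oxidases and histamine enzymes was 2-fold higher on the Y42C array. Its copper amine oxidase relatives AOC2 (4.11 and 3.93) and AOC3 (4.74 and 5.06) were below the minimum on both arrays. HNMT, which inactivates histamine inside cells, read 9.07 and 8.92, a difference of -0.15. HDC, which makes histamine, was below the minimum on both arrays. MAOA and MAOB differed by -0.25 and 0.41, and LOX by -0.73. ALDH9A1, which oxidises the aminoaldehyde formed from putrescine, read 10.27 on the wild-type and 8.49 on the Y42C array and was 3.43-fold lower.

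Of the transcription factors known to act on polyamine genes, MYC differed most. It read 8.15 on the wild-type and 10.22 on the Y42C array and was 4.2-fold higher. MAX, its partner, read 10.08 and 11.05, a difference of 0.97, which passed 2-fold after centring (1.03). SRM, the 1 measured member with an E-box in a promoter window, differed by 0.40. Of the genes above the minimum, 57.2% differed by as much or more. AZIN1, SMOX and PAOX had no window to search, and a link between MYC and SRM was not tested. NFE2L2 differed by 0.32 and PPARG by -0.45, and MYCN was below the minimum on both arrays.

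**Figure D3:**
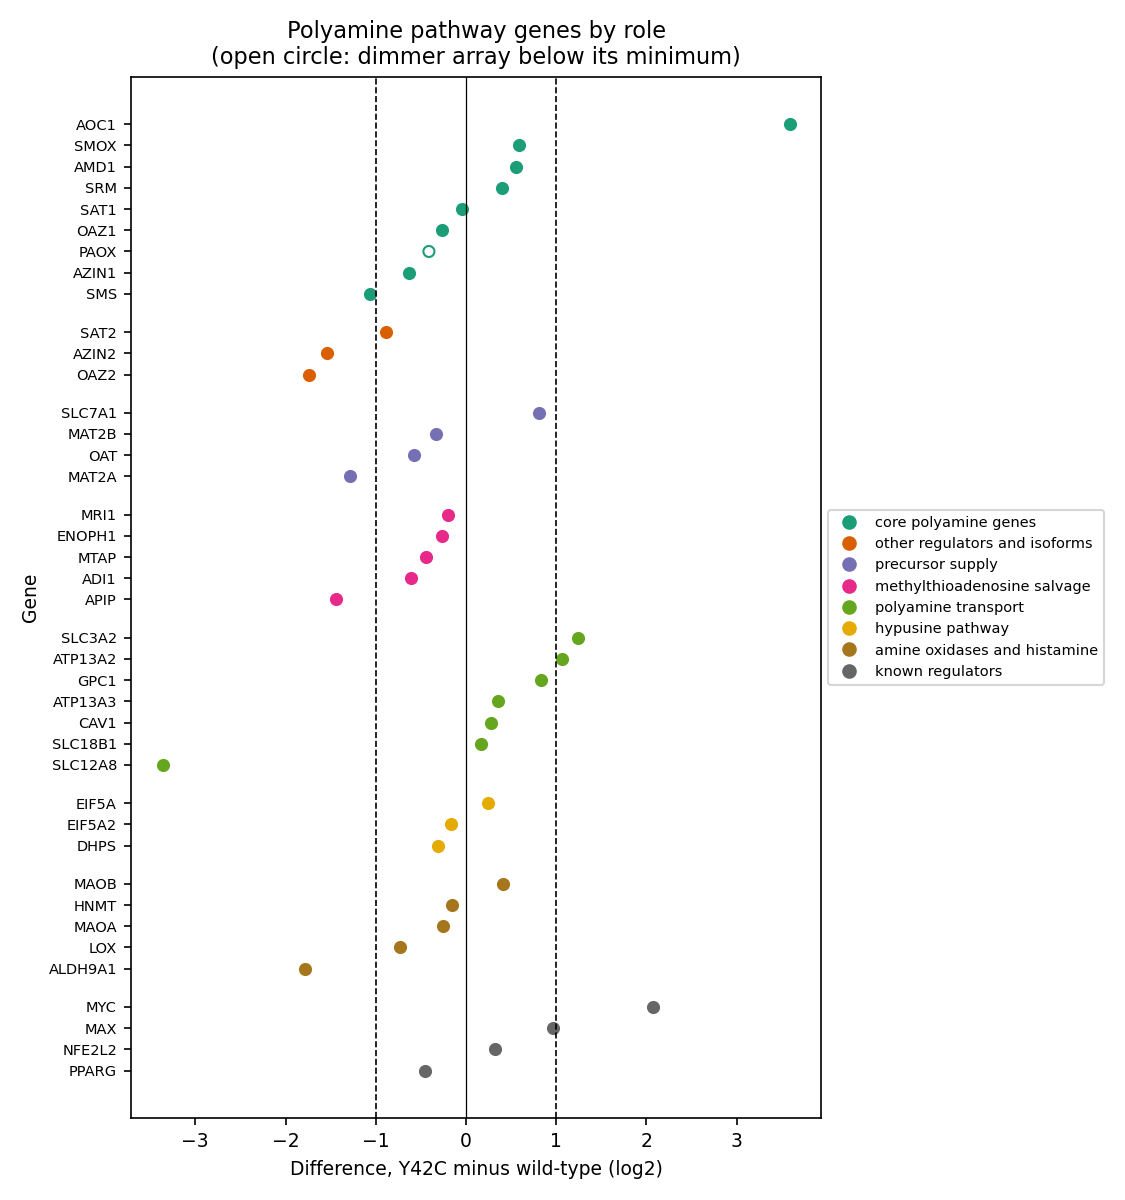
Log2 difference, Y42C minus wild-type (x axis), of the 9 polyamine genes and the 31 wider pathway genes above the minimum (y axis), coloured by role, with dashed lines at 2-fold and an open circle where the dimmer array was below its minimum. The points show AOC1 (3.59) and MYC (2.07) at the right and SLC12A8 (-3.36) at the left.

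The chromosomal neighbours of AOC1 were read in the order of the RefSeq gene table, taking the 3 named genes on each side. On one side TMEM176A and TMEM176B, a pair of related membrane protein genes, were also higher on the Y42C array. TMEM176A read 6.36 and 7.67, a 2.48-fold difference, and TMEM176B 10.02 and 11.92, a 3.73-fold difference. KCNH2, a potassium channel gene on the other side, read 7.09 and 7.29, a difference of 0.20. GIMAP2, NOS3 and ATG9B were below the minimum on both arrays. Of the 3 neighbours above the minimum, 2 were thus past 2-fold higher, beside 7.46% of all genes above it, and these are the 2 nearest to AOC1 on that side. AOC1 was chosen for its difference, and nothing is read from the count of its neighbours.

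**Figure D4:**
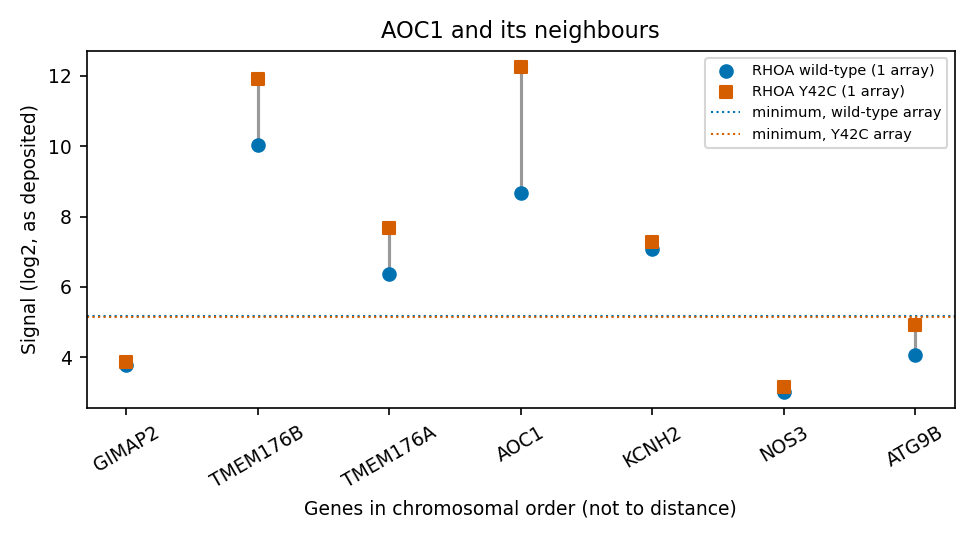
Signal (y axis, log2 as deposited) of AOC1 and the 3 named genes on each side of it in chromosomal order (x axis, not to distance) on the wild-type array (blue circles) and the Y42C array (orange squares), with the minimum of each array dotted. TMEM176B, TMEM176A and AOC1 are higher on the Y42C array, and KCNH2 lies at 7.09 and 7.29.

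The genes nearest to AOC1 in their pair of values were MMP1, a collagenase (8.72 and 12.16), GATA3, a transcription factor (8.74 and 11.79), and SPINT1, a protease inhibitor (8.92 and 11.72). With 2 arrays this likeness is only a distance in 2 values, which was 0.11, 0.47 and 0.59 on the log2 scale.

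RHOA itself read 16.47 and 16.30, which does not check the labels because both lines carry an added RHOA. Among all 17687 named genes, 11802 were above the minimum on at least 1 array. Of 6 epithelial markers, 5 were above the minimum and CDH1 was below it on both arrays. Of 6 gastric markers only CLDN18 was above it. Of 4 mast cell markers measured, a cell type rich in histamine, TPSAB1 was above the minimum (5.24 and 5.51) while KIT, CPA3 and HDC were not. Of 4 leukocyte markers measured, PTPRC and CD3E were above the minimum on the Y42C array alone, CD14 read 7.45 and 5.67, and CD68 10.66 and 10.15. Above the minimum were 2 of 5 fibroblast markers, with LUM at 12.09 and 14.37 and COL1A1 at 6.05 and 5.84, and 2 of 4 endothelial markers, PECAM1 (6.12 and 6.05) and VWF (6.08 and 6.88). The part of these levels in the differences of polyamine genes was not tested.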

How the data were processed

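RNA of 2 MKN1 lines was measured on 1 Affymetrix array each. The deposited table holds log2 values of 21448 probe sets on each array, from 2.23 to 18.16; the log base was inferred from that range, so every fold assumes it. Affymetrix Expression Console was used, per the submitters' processing notes; the sources used here do not give its version, summary method, normalization or genome build. The array medians were 6.42 (wild-type) and 6.36 (Y42C), and values were used as deposited. The platform annotation named 17709 probe sets, and probe sets of a gene were averaged.

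Differences are Y42C minus wild-type, the threshold was 2-fold, and a fold is a lower bound where the dimmer array was below its minimum. The rule named all 10 members and, of the wider list, genes past 2-fold and a set of related genes; others were named to complete a group. The members and lists were chosen with earlier results of these data known, and the range over 500 genes of like signal was chosen after the data were seen. The alternatives were centring, quantile normalization, lowess trend removal (span 0.3), a constant of 16, other minimums, the brightest probe set and a 1.5-fold threshold. The counting step was run on simulated data with planted differences far past the threshold. That checks the code and not the calls of genes near the 2-fold line. Software was NumPy 2.4.6, pandas 2.3.3 and statsmodels 0.14.6 under Python 3.11.15, with figures drawn in matplotlib 3.10.9.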

Additional observations from a re-analysis of the deposited data

How the results depend on the processing

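With 1 array per line, no alternative measures the spread between cultures, and precision is limited by the number of arrays. No paired analysis was possible because each group holds 1 array. Over 8 alternatives the log2 difference of AOC1 ran from 3.54 to 3.70 and that of SMS from -1.06 to -1.0. The other minimums and the brightest probe set could not change either value. Each of these genes has 1 probe set and lies above every minimum. SMOX ran from 0.52 to 0.71, and over 7 alternatives PAOX ran from -0.48 to -0.08, its weakest value being that with lower values raised to the minimum. With the array median as minimum PAOX was left out. The median over the measured members had no stable sign, being -0.04 as reported, 0.02 after centring or quantile normalization, 0.08 after trend removal and 0.18 with the array median as minimum. With a 1.5-fold threshold, 2 members were higher and 2 lower, and 6 genes of the wider list were higher and 9 lower, beside 17.8% and 23.4% of all genes. After centring, the shares of all genes at least 2-fold higher and lower were both 8.7%, and 4 genes of the wider list were higher instead of 3.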
